A study of Homo sapiens with 6 samples.

Results

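The 32 genes described here are those of the NRF2 pathway and the antioxidant enzymes, taken by symbol from a list. Of these, 31 were found among the 16574 genes of the files, and GPX2 was not analysed here. All 31 passed the filter on low values, which kept the 11223 genes with 3 or more libraries at 1 FPKM or above. FPKM are fragments scaled to transcript length and to library total, so levels of different genes can be set side by side per length. SOD2 is represented by the identifier ENSG00000285441, a second SOD2 gene model in GENCODE v29 that overlaps the main SOD2 locus, so its values may hold only a share of SOD2 transcripts.

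RNA was sequenced from Nthy-ori 3-1, an immortalised line of normal human thyroid follicular epithelial cells that is labelled wild type in every sample. Cells of the BDE209 group (3 libraries) were kept for 27 days in 2.5 µM decabromodiphenyl ether, a brominated flame retardant, and those of the DMSO group (3 libraries) for the same 27 days in a matched volume of dimethyl sulfoxide, the solvent. The series asks how long exposure to BDE209 acts on thyroid cell growth, with the thyroid hormone receptor beta as the named mediator. Whether a replicate was its own culture is not said in the labels, and p-values therefore reflect library-to-library spread that may be technical.

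NRF2, the product of NFE2L2, is a transcription factor that KEAP1 holds in the cytoplasm and marks for degradation. Electrophiles and oxidants modify cysteines of KEAP1, after which NRF2 enters the nucleus, pairs with a small MAF protein such as MAFG and binds antioxidant response elements in its target genes. Those targets make and reduce glutathione and thioredoxin, supply NADPH, break down heme, store iron and conjugate or export foreign compounds. The thyroid follicular epithelium makes hydrogen peroxide for hormone synthesis, so peroxiredoxins, glutathione peroxidases and catalase are known there as protective enzymes. NRF2 itself is controlled mainly as a protein, which was not measured.

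The summed FPKM of a library ran between 567810 and 829739, and depth in fragments is unknown. Both replicate 2 libraries stood apart from the others, in the BDE209 and in the DMSO group alike. In deviations from the group means, BDE209 and DMSO libraries of the same number correlated across the 11223 genes at 0.738, 0.875 and 0.824 for replicates 1, 2 and 3. BDE209 and DMSO libraries of replicates 1 and 3 also correlated across numbers, at 0.646 and 0.644, so much of this is replicate 2 against the rest. Each difference is also given within its replicate number, called a pair below. Of 10 thyroid follicular markers, 8 were under 1 FPKM in every library, among them TG, at 0.12 FPKM or less, and of 6 epithelial markers 4 were at 1 FPKM or more in every library, while CDH1, at 0.25 FPKM or less, and KRT19, at 0.08 or less, were near 0. Of 6 mesenchymal markers, 5 were at 1 FPKM or more in every library, and the endothelial, immune and C cell markers measured were all under 1. In bulk RNA, a change in the number of cells of one kind and a change of RNA per cell cannot be told apart.

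Across all 6 libraries no member of the pathway was called, and most mean differences were small, as they were over all genes. Limma on log2(FPKM + 1) called 0 of 31 members and 0 of all 11223 genes (0.00%) at a Benjamini-Hochberg adjusted p under 0.05. At an unadjusted p under 0.05 it found 1 member, OSGIN1, and 176 genes (1.57%). Limma without its trend and robust options also called 0 genes. The median difference, BDE209 minus DMSO, was 0.03 on the log2(FPKM + 1) scale over the members and 0.01 over all genes tested. Within 0.2 of 0 lay 27 of the 31 members and 9433 of the 11223 genes. A small mean can hold pairs of opposite sign, as in BLVRB, with 0.31, -0.11 and 0.36 in pairs 1, 2 and 3. Within pairs 1, 2 and 3 the members' medians were 0.04, 0.04 and 0.00, against 0.01, 0.02 and 0.00 over all genes.

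Several patterns appear in the plot of differences within each replicate number. A few, led by FTH1 and SOD2, were clearly higher under BDE209 in replicates 1 and 3 but not, or less so, in replicate 2. OSGIN1 was lower in every pair, as were GPX1, PGD and TKT by less. PRDX1, PRDX3, PRDX6 and SRXN1 were lower in replicates 1 and 3 and higher in replicate 2. The other classical inducible targets of NRF2, GCLC, GCLM, TXNRD1, SRXN1 and HMOX1, had differences between -0.21 and 0.27 in single pairs. In all, 8 members were higher in all 3 pairs (25.8%, against 21.9% of all genes) and 4 were lower in all 3 (12.9%, against 17.3%). In 3 members the groups did not overlap (9.68%, against 5.22% of all genes). CAT was above in every BDE209 library (3.22% of all genes were), and OSGIN1 and PGD were below (2.00% of all genes were).

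**Figure D1:**
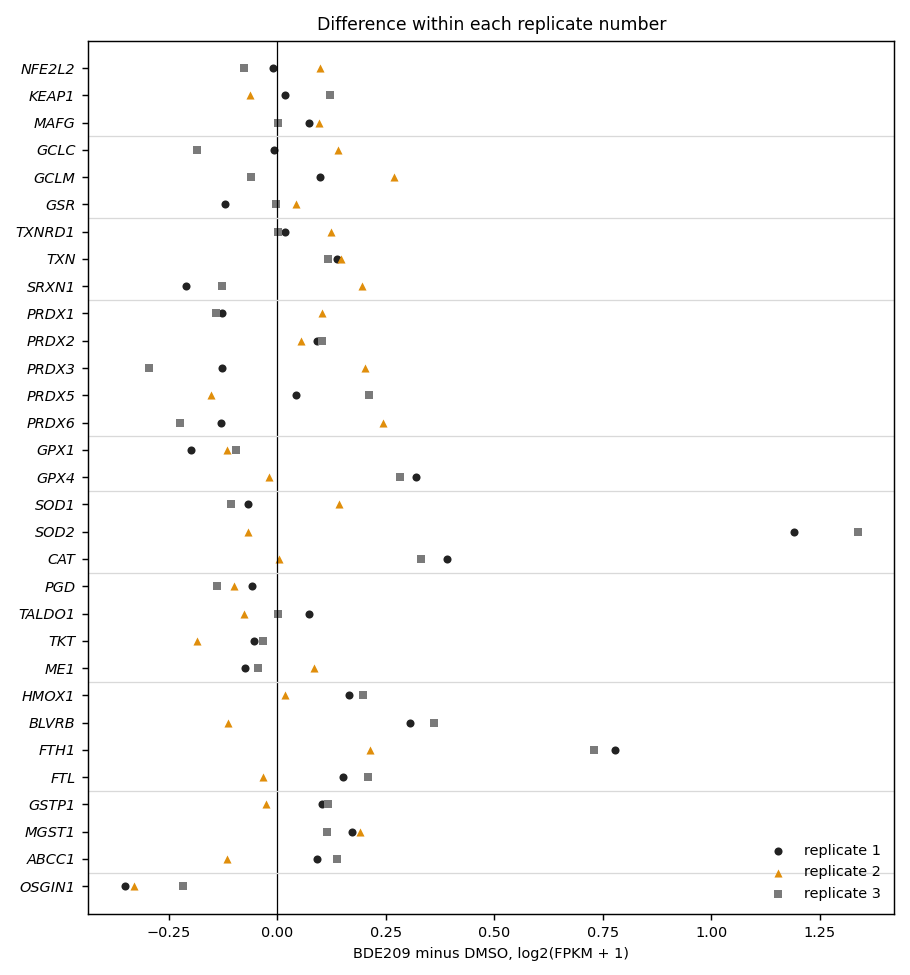
Difference between BDE209 and DMSO within each replicate number for the 31 members, on the log2(FPKM + 1) scale (x axis), with genes ordered by role (y axis) and 1 point per replicate number. FTH1 and SOD2 lie far to the right in replicates 1 and 3, OSGIN1 lies to the left in all 3, and most other points lie near 0.

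Among replicates 1 and 3 alone, 4 members were called higher under BDE209 and 0 lower. Other members, such as PRDX3, PRDX6 and OSGIN1, were lower in both pairs without a call. Leaving out replicate 2 was chosen with its departure known from earlier results of these data. Calls from replicates 1 and 3 therefore describe those libraries only. Limma on these 4 libraries called FTH1, SOD2, CAT and BLVRB, or 12.9% of the members, against 764 of all genes (6.81%, with 4.47% higher and 2.33% lower). With the replicate number as a block, a fit that rests on 1 residual degree of freedom, it called 17 members, 11 higher and 6 lower (54.8%), against 28.0% of all genes (14.1% higher, and 1566 genes lower). Besides the 4 above, MGST1, GSTP1, FTL, HMOX1, PRDX5, TXN and GPX4 were higher there, and PRDX1, PRDX6, PRDX3, GPX1, SRXN1 and OSGIN1 lower. Calls given below for replicates 1 and 3 are those without the block unless it is named. Some mesenchymal markers were called in the same 4 libraries: COL3A1, a fibrillar collagen, by -1.70 (limma adjusted p = 0.000144), FN1, fibronectin, by -0.53 (0.0085) and CDH2, N-cadherin, by 0.42 (0.035). The more abundant VIM, COL1A1 and COL1A2 were not called without the block, with differences of -0.27, -0.05 and -0.13. The summed level of the 6 mesenchymal markers over all libraries was 8978 to 12026 FPKM in BDE209 and 9725 to 14363 in DMSO, and their part in the members' differences was not tested. Over all 6 libraries the block called 0 members and 0 genes (0.00%), with 7 members (22.6%) and 1847 genes (16.5%) at an unadjusted p under 0.05. A contrast of the difference in replicate 2 with that in replicates 1 and 3 passed for SOD2 alone among the members, and for 69 of all genes (0.615%, with 0.151% larger and 0.463% smaller in replicate 2). It takes its spread from replicates 1 and 3, since replicate 2 has 1 library per group.

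The regulators had mean levels close to those in DMSO, with intervals that still hold a moderate change. NFE2L2 (ENSG00000116044), which encodes NRF2, had 44.1, 43.2 and 37.3 FPKM in BDE209 replicates 1, 2 and 3, against 44.3, 40.3 and 39.3 in DMSO. KEAP1 (ENSG00000079999), its repressor, had 40.9, 32.5 and 45.0 FPKM in BDE209, against 40.4, 34.0 and 41.3 in DMSO. MAFG (ENSG00000197063), the small MAF partner, had 7.59, 6.12 and 8.27 FPKM in BDE209, against 7.17, 5.66 and 8.26 in DMSO. The groups overlapped in all 3 genes. Their log2 differences were 0.00, 0.03 and 0.06, with 95% intervals of -0.31 to 0.32, -0.37 to 0.43 and -0.36 to 0.48.

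Genes of heme and iron handling held the largest levels and, in FTH1, the largest difference after SOD2. Ferritin stores iron in a shell of heavy and light chains. FTH1 (ENSG00000167996), the heavy chain with the ferroxidase activity, had 3721, 2046 and 3806 FPKM in BDE209 replicates 1, 2 and 3, against 2169, 1765 and 2294 in DMSO. It was higher in each pair, by 1.72, 1.16 and 1.66-fold, but the groups overlapped because BDE209 replicate 2 lay under 2 of the DMSO values. The log2 difference was 0.57 (SE 0.34; limma adjusted p = 1.00, or 0.207 with the block). In replicates 1 and 3 alone FTH1 rose by 0.75 (95% interval 0.57 to 0.94; limma adjusted p = 0.0028), and the contrast with replicate 2 did not pass (limma adjusted p = 0.203).

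FTL (ENSG00000087086), the light chain, was the most abundant member and moved less. It had 6016, 6707 and 5989 FPKM in BDE209, against 5416, 6860 and 5183 in DMSO, a log2 difference of 0.11 (SE 0.29). FTL was higher in replicates 1 and 3 and lower in replicate 2. The ratio of FTH1 to FTL was 0.619, 0.305 and 0.636 in BDE209, against 0.40, 0.257 and 0.443 in DMSO, higher in each pair; the ratio was chosen after its values were seen and was not tested. The reference names 25 processed copies of FTH1 and 16 of FTL, none with values in the files, and how reads shared with them were assigned is not given in the sources used here.

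HMOX1 (ENSG00000100292), heme oxygenase and one of the most inducible NRF2 targets, had 26.03, 23.7 and 28.4 FPKM in BDE209, against 23.1, 23.4 and 24.7 in DMSO. HMOX1 was higher in each pair, by 1.13, 1.01 and 1.15-fold, and the groups overlapped. Its log2 difference was 0.13 (95% interval -0.16 to 0.41), and HMOX1 was called only in replicates 1 and 3 with the block (limma adjusted p = 0.0256). BLVRB (ENSG00000090013), which reduces biliverdin and flavins, had 179, 160 and 184 FPKM in BDE209, against 144, 173 and 143 in DMSO, so that the direction turned in replicate 2. In replicates 1 and 3 alone BLVRB rose by 0.33 (limma adjusted p = 0.0353), a call that was lost without any one of the 4 libraries, and without limma's trend and robust options (adjusted p = 0.0602).

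**Figure D2:**
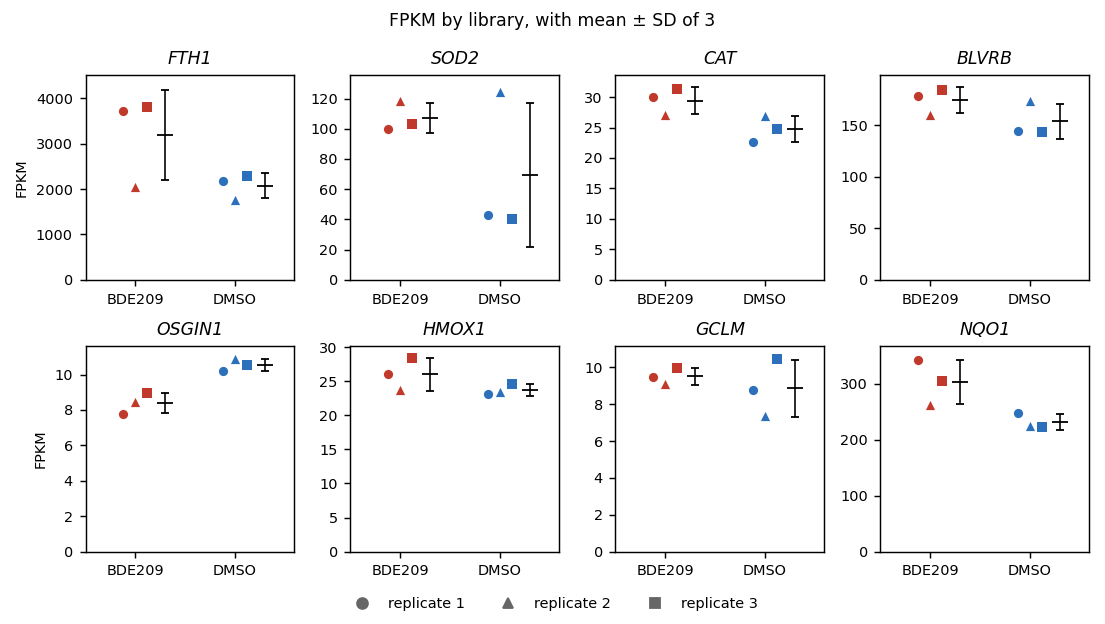
FPKM of 8 genes (y axis, from 0) in BDE209 and DMSO libraries (x axis), with 1 symbol per replicate number and the mean ± SD of 3 beside them. FTH1 and SOD2 show the distance of replicate 2 from the others, OSGIN1 is lower in all BDE209 libraries, and HMOX1 and GCLM overlap between the groups.

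Of the superoxide dismutases and catalase, SOD2 and CAT rose in replicates 1 and 3 and SOD1 did not. SOD2, the mitochondrial manganese enzyme that turns superoxide into hydrogen peroxide, had 99.6, 119 and 103 FPKM in BDE209, against 43.1, 124 and 40.1 in DMSO. The ratios were 2.31, 0.954 and 2.57, and the exception was DMSO replicate 2, which alone among DMSO libraries stood at the BDE209 level. Over all 6 libraries the log2 difference was 0.82 (SE 0.43; limma adjusted p = 1.00). In replicates 1 and 3 it was 1.26 (95% interval 1.09 to 1.44; limma adjusted p = 0.000336), and the difference in replicate 2 departed from it by -1.33 (limma adjusted p = 0.011). SOD2 is also a well-known target of NF-kB.

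CAT (ENSG00000121691), the peroxisomal enzyme that splits hydrogen peroxide, had 30.0, 27.0 and 31.3 FPKM in BDE209, against 22.6, 26.9 and 24.7 in DMSO. Every BDE209 value lay above every DMSO value, although in pair 2 by only 1.00-fold, against 1.33 and 1.27-fold in pairs 1 and 3. The log2 difference was 0.24 (95% interval -0.06 to 0.55), and 0.36 in replicates 1 and 3 (limma adjusted p = 0.0433). That call was lost without any one of the 4 libraries, with median-ratio scaling (adjusted p = 0.0550) and without limma's trend and robust options (0.0656). SOD1 (ENSG00000142168), the cytosolic copper and zinc enzyme, had 233, 482 and 212 FPKM in BDE209, against 244, 436 and 229 in DMSO, with a log2 difference of -0.01 (SE 0.41).

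Glutathione synthesis and reduction differed little. GCLC (ENSG00000001084), the catalytic subunit of the rate-limiting ligase, had 8.33, 10.5 and 6.94 FPKM in BDE209, against 8.38, 9.45 and 8.03 in DMSO. GCLM (ENSG00000023909), its modifier subunit, had 9.46, 9.10 and 9.99 FPKM in BDE209, against 8.77, 7.38 and 10.5 in DMSO. GSR (ENSG00000104687), which returns oxidised glutathione to its reduced form, ran from 11.8 to 14.3 FPKM in BDE209 and from 11.4 to 15.5 in DMSO. None of the 3 had one direction in all pairs, and their log2 differences were -0.02, 0.10 and -0.03. The 95% interval of GCLM, from -0.25 to 0.45, still holds a moderate change.

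In the thioredoxin system, TXN (ENSG00000136810), the small disulfide reductase itself, was higher in each pair by 1.10, 1.11 and 1.08-fold. It had 615, 1397 and 526 FPKM in BDE209, against 559, 1261 and 485 in DMSO. The step between replicate 2 and the others, 1.29 log2 units, was far larger than the BDE209 difference of 0.13. TXNRD1 (ENSG00000198431), the selenoprotein that reduces TXN, had 122, 98.2 and 112 FPKM in BDE209, against 120, 90.1 and 112 in DMSO, a log2 difference of 0.05. SRXN1 (ENSG00000271303), which repairs overoxidised peroxiredoxins, had 48.0, 58.2 and 51.5 FPKM in BDE209, against 55.6, 50.7 and 56.4 in DMSO. SRXN1 was lower in pairs 1 and 3 and higher in pair 2, with overlapping groups, and was called only in replicates 1 and 3 with the block (limma adjusted p = 0.0184).

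The 5 peroxiredoxins, which reduce peroxides with electrons from thioredoxin or, in PRDX6, from glutathione, split by pair and were called only in replicates 1 and 3 with the block, where PRDX2 was not. PRDX2, an abundant cytosolic form, was higher in each pair, at 340, 481 and 335 FPKM in BDE209, against 319, 464 and 312 in DMSO. PRDX1, PRDX3 and PRDX6, of the cytosol, of mitochondria and of the glutathione-dependent class, were lower in pairs 1 and 3 and higher in pair 2. Mitochondrial PRDX3 had 78.0, 141 and 68.9 FPKM in BDE209, against 85.2, 122 and 84.9 in DMSO. PRDX5 ran the other way, higher in pairs 1 and 3 and lower in pair 2. Over the 6 libraries their log2 differences lay between -0.07 and 0.08.

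Of the glutathione peroxidases, GPX4 was higher and GPX1 lower in pairs 1 and 3, called only with the block in those replicates. GPX4 (ENSG00000167468), which reduces lipid peroxides in membranes and guards against ferroptosis, had 403, 505 and 424 FPKM in BDE209, against 322, 512 and 348 in DMSO. Its difference of 0.30 in replicates 1 and 3 missed the threshold (limma adjusted p = 0.0729). GPX1 (ENSG00000233276), the cytosolic enzyme, was lower in each pair, at 443, 585 and 534 FPKM in BDE209, against 508, 634 and 570 in DMSO. The groups overlapped, and the log2 difference of GPX1 was -0.14 (SE 0.21).

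The genes of NADPH supply were lower or level, without a call. PGD (ENSG00000142657), of the oxidative pentose phosphate pathway, had 84.6, 79.3 and 78.0 FPKM in BDE209, against 88.2, 85.1 and 86.0 in DMSO, and so was lower in every BDE209 library. Its log2 difference was -0.10 (95% interval -0.40 to 0.20). TKT, a transketolase, was lower in each pair too, at 288, 240 and 300 FPKM in BDE209, against 299, 272 and 307 in DMSO. TALDO1, a transaldolase, and ME1, malic enzyme, differed by 0.00 and -0.01.

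Among genes of conjugation and export, MGST1 (ENSG00000008394), a membrane-bound glutathione transferase, was higher in each pair by 1.13, 1.14 and 1.08-fold. It had 298, 405 and 261 FPKM in BDE209, against 265, 355 and 241 in DMSO, with overlap between the groups and a log2 difference of 0.16 (SE 0.25). GSTP1, the cytosolic transferase and the third most abundant member, had 792, 1338 and 818 FPKM in BDE209, against 737, 1362 and 755 in DMSO. ABCC1, an exporter of glutathione conjugates, had 12.6, 5.57 and 13.4 FPKM in BDE209, against 11.8, 6.12 and 12.1 in DMSO. Both were higher in pairs 1 and 3 and lower in pair 2.

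OSGIN1 (ENSG00000140961), a growth inhibitor that is induced by oxidative stress and by NRF2, was the 1 member with an unadjusted p under 0.05 over all 6 libraries. It had 7.78, 8.46 and 8.95 FPKM in BDE209, against 10.2, 10.9 and 10.6 in DMSO. Every BDE209 value lay below every DMSO value, with ratios of 0.763, 0.777 and 0.848 in pairs 1, 2 and 3. The log2 difference of OSGIN1 was -0.30 (SE 0.11, 95% interval -0.56 to -0.04), which did not pass over all genes (limma adjusted p = 1.00, or 0.204 with the block). In replicates 1 and 3 alone it was -0.28 (limma adjusted p = 0.126, or 0.0085 with the block).

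**Figure D3:**
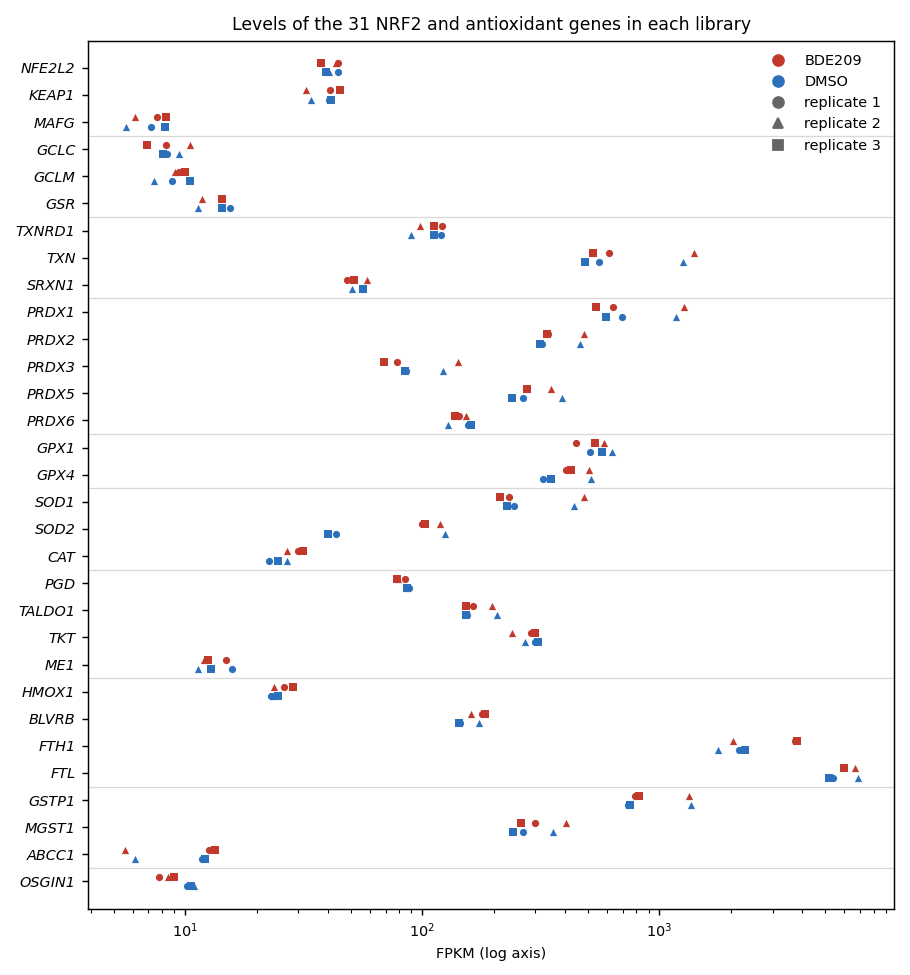
FPKM on a log axis (x axis) of the 31 members in each library (y axis, ordered by role), with colour for BDE209 or DMSO and 1 symbol per replicate number. Replicate 2 lies to the right of the others in both groups for TXN, PRDX1, SOD1 and GSTP1 and to the left for ABCC1, while NFE2L2 and HMOX1 lie close together.

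Levels spread over 3 orders of magnitude. Averaged over the 6 libraries, 2 members were above 1000 FPKM, 14 lay between 100 and 1000, 11 between 10 and 100 and 4 under 10. FTL led with 6237 ± 407 FPKM in BDE209 and 5820 ± 908 in DMSO (SD, n = 3 each), followed by FTH1 with 3191 ± 993 in BDE209 and 2076 ± 276 in DMSO. The order below them was GSTP1, PRDX1, TXN, GPX1 and GPX4, and PRDX1 and TXN did not differ beyond their spread. The 4 lowest were OSGIN1, GCLM, GCLC and MAFG. Together the 31 members held 2.59, 2.05 and 2.66% of the summed FPKM in BDE209 replicates 1, 2 and 3, against 2.15, 2.03 and 2.17% in DMSO. Most of this was heme and iron handling, with both ferritins, at 1.70, 1.08 and 1.76% in BDE209, against 1.30, 1.08 and 1.32% in DMSO. The total therefore mainly follows the ferritins and does not describe the members at large.

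Of the other genes of the pathway, a list of 64, 57 were tested. Limma called 0 of them over all 6 libraries. At an unadjusted p under 0.05 it found 3, MAFF, AKR1B10 and PIR (5.26%, against 1.57% of all genes). In replicates 1 and 3, 7 of 57 were called (12.3%, against 6.81% of all genes), 6 higher and 1 lower. With the block in those replicates 24 were called (42.1%, against 28.0% of all genes), 15 higher and 9 lower. The median log2 difference of the 57 was 0.03, against 0.01 over all genes tested. In all 3 pairs 18 were higher and 5 lower (31.6% and 8.77%, against 21.9% and 17.3% of all genes). Every BDE209 value lay above every DMSO value in 4 of the 57 (7.02%, against 3.22% of all genes). In the contrast of replicate 2 with replicates 1 and 3, 0 of the 57 were called by limma, with 13 at an unadjusted p under 0.05 (11.1% of all genes); without limma's trend and robust options the count was also 0.

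By role, 4 of 9 relatives, partners and regulators of NRF2 were called in replicates 1 and 3. The calls were 2 of 22 among other targets and 1 of 26 among other redox enzymes, against 6.81% of all genes. NFE2L3 (ENSG00000050344), a relative of NRF2, had 24.8, 13.01 and 27.2 FPKM in BDE209, against 13.1, 11.7 and 13.5 in DMSO, and rose in replicates 1 and 3 by 0.92 (limma adjusted p = 0.0016). SQSTM1 (ENSG00000161011), the autophagy receptor p62 that sequesters KEAP1, had 281, 168 and 285 FPKM in BDE209, against 178, 152 and 182 in DMSO. It rose there by 0.65 (limma adjusted p = 0.0032). MAFF (ENSG00000185022), another small MAF, had 21.2, 21.9 and 24.6 FPKM in BDE209, against 14.8, 20.1 and 15.7 in DMSO, with no overlap, and rose by 0.55 in replicates 1 and 3 (limma adjusted p = 0.018). NFE2L1, the fourth called, rose by 0.31 (limma adjusted p = 0.0447), a call that was lost with median-ratio scaling (0.0608) and without trend and robust options (0.0781). BACH1, which competes with NRF2 at its binding sites, differed by 0.04 and was not called.

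Of the other target genes, NQO1 and ABCC3 were called in replicates 1 and 3. NQO1 (ENSG00000181019), a quinone reductase and standard NRF2 reporter gene, had 342, 262 and 305 FPKM in BDE209, against 248, 225 and 223 in DMSO. All 3 BDE209 values of NQO1 lay above the DMSO values, with ratios of 1.38, 1.17 and 1.37 and a log2 difference of 0.38 (SE 0.18; 0.46 in replicates 1 and 3, limma adjusted p = 0.0313). The NQO1 call was lost without limma's trend and robust options (adjusted p = 0.0507). AKR1B10 (ENSG00000198074), an aldo-keto reductase, had 5.40, 6.53 and 5.01 FPKM in BDE209, against 4.14, 4.07 and 3.73 in DMSO, also without overlap, with a log2 difference of 0.41. PIR (ENSG00000087842), an iron-binding nuclear protein, had 9.97, 10.4 and 11.6 FPKM in BDE209, against 7.17, 9.19 and 8.25 in DMSO. ABCC3, a conjugate exporter, rose by 0.68 in replicates 1 and 3 (limma adjusted p = 0.0055) and had a lower value in BDE209 in replicate 2.

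SLC7A11 (ENSG00000151012), the cystine carrier that feeds glutathione synthesis, was not called in any of these fits; it had 20.9, 10.4 and 26.1 FPKM in BDE209, against 19.6, 10.04 and 22.3 in DMSO. ALDH3A1, an aldehyde dehydrogenase of low level, had 2.30, 0.87 and 2.69 FPKM in BDE209, against 1.54, 0.86 and 1.52 in DMSO. Its difference in replicates 1 and 3 was 0.46 (limma adjusted p = 0.0509, or 0.0361 without trend and robust options and 0.0052 with the block). SELENOW (ENSG00000178980), a small selenoprotein, was the 1 gene of the list called lower in replicates 1 and 3 without the block. SELENOW had 81.5 and 81.6 FPKM in BDE209 replicates 1 and 3, against 117 and 127 in DMSO, with 168 in BDE209 and 172 in DMSO replicate 2. Its difference in replicates 1 and 3 was -0.57 (limma adjusted p = 0.0066). With the block, UGDH, which makes UDP-glucuronate, PRDX4, TXN2, GSTK1, MGST3, GLRX5, MSRA and RBX1 were called lower too, by 0.14 to 0.31. Among the 15 called higher in that fit were also EPHX1, GLRX, TRIM16, TXNIP and IDH2, by 0.20 to 0.30. The genes of both groups were named after their values were seen.

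**Figure D4:**
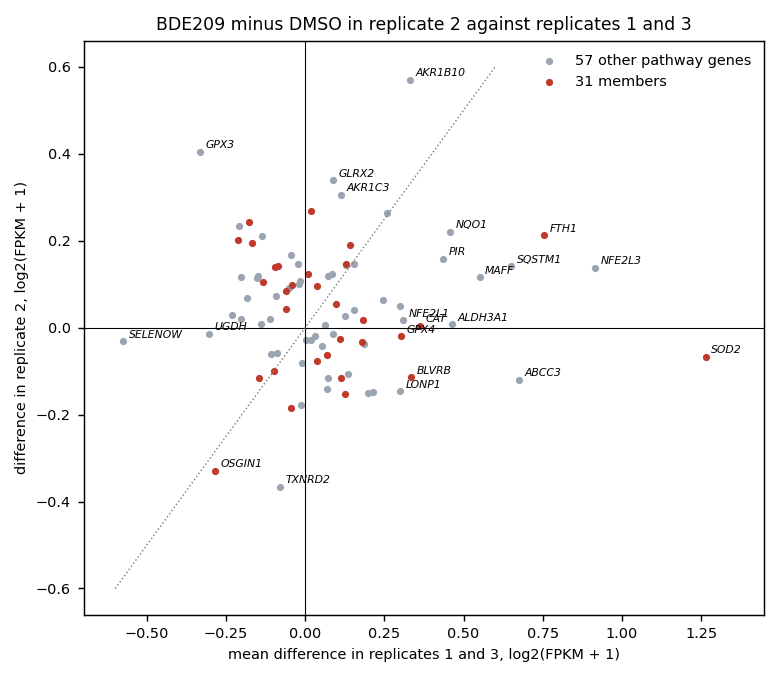
Difference between BDE209 and DMSO in replicate 2 (y axis) against its mean in replicates 1 and 3 (x axis), both on the log2(FPKM + 1) scale, for the 31 members and the 57 other pathway genes tested; genes past 0.3 on either axis are named and the dotted line marks equal differences. SOD2, NFE2L3 and FTH1 lie far right and near or little above 0 on the y axis, whereas OSGIN1 lies close to the line.

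Promoter letters were compared with these differences, since NRF2 binds a known motif. RefSeq windows (GRCh38.p14) from 250 bases before to 50 after the gene start were found for 25 of the 32 listed genes. No window was searched for FTH1, HMOX1, GSR, PRDX1, PRDX6, SOD1 and ABCC1, so the motif is unknown there. The motif searched was TGACNNNGC on both strands, the core of the antioxidant response element, which overlaps the AP-1 motif TGACTCA. It stood in a window of 8 of the 25 (32%), namely KEAP1, GCLM, TXNRD1, GPX2, PGD, ME1, GSTP1 and MGST1, and in 16.1% of the 27305 genes with a window. The 7 of these that were measured had log2 differences between -0.10 and 0.16. In replicates 1 and 3 none of them was called without the block (6.81% of all genes were). With the block GSTP1 and MGST1 were called (28.0% of all genes were). The windows of CAT, BLVRB, SOD2 and OSGIN1 did not hold these letters. A match is no evidence of binding, and the window leaves out distal elements.

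The windows below are those of 3 members with the motif and little difference, GCLM, GSTP1 and ME1, followed by CAT, BLVRB and OSGIN1 as members without it that stood out above. They are examples, and a link of motif and difference was not tested. MGST1, with the motif, was higher in each pair. Members without it, such as NFE2L2, GCLC and TALDO1, differed by as little as 0.00, -0.02 and 0.00. Capitals mark the motif on either strand, and each window reads 5′ to 3′ along its gene.
GCLM, chr1:93909381-93909680, minus strand: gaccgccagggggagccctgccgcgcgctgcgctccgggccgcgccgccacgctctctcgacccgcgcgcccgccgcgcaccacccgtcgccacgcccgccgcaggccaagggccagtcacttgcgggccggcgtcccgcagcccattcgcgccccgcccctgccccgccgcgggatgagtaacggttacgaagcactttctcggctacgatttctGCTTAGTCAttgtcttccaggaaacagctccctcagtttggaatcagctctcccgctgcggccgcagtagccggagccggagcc
GSTP1, chr11:67583562-67583861, plus strand: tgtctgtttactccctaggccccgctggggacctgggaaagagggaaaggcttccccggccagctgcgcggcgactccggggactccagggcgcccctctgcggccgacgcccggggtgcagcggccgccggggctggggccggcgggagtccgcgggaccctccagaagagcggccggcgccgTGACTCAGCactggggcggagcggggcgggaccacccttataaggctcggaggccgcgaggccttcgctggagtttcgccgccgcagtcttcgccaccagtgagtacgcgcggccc
ME1, chr6:83431002-83431301, minus strand: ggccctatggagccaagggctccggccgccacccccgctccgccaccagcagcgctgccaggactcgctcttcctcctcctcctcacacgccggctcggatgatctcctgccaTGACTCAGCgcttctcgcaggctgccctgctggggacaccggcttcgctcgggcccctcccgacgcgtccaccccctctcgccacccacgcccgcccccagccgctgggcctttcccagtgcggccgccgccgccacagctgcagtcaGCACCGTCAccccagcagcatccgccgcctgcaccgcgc
CAT, chr11:34438684-34438983, plus strand: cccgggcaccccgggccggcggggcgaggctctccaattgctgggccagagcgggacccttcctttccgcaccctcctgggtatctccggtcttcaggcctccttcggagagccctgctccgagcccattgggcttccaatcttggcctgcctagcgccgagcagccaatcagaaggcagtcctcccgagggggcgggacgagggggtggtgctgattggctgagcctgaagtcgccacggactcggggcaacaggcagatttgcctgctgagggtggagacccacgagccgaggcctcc
BLVRB, chr19:40465696-40465995, minus strand: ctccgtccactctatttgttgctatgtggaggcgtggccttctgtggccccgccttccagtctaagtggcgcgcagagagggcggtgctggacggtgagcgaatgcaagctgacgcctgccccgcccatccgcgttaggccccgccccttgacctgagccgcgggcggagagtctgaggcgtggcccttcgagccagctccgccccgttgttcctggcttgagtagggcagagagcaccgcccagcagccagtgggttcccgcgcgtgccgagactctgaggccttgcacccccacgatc
OSGIN1, chr16:83952990-83953289, plus strand: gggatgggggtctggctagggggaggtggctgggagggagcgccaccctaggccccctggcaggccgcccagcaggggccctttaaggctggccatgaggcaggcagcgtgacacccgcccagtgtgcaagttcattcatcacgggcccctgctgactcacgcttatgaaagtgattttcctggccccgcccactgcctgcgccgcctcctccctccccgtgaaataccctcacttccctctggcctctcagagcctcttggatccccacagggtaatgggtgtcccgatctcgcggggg
In GSTP1 and ME1 a match in the direction of the gene is TGACTCAGC, which contains the AP-1 motif, and in GCLM the match is GCTTAGTCA, the motif on the opposite strand. The window of OSGIN1 holds TGACTCA without the longer motif; on either strand TGACTCA stands in 6.05% of genes with a window.

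Replicate 2 bore on most members. Its libraries differed from replicates 1 and 3, averaged over both groups, by more than BDE209 differed from DMSO in 25 of 31 members. That count was not taken over all genes, so whether it is particular to the members is unknown. The shift went with transcript length, taken from GENCODE v29. Of the 13 members with a median transcript up to 1000 bases, 11 were higher in replicate 2, by a median of 0.48 log2 units, and of the 18 longer ones 8 were higher, with a median of -0.10. TXN, PRDX1 and SOD1 shifted most, by 1.29, 0.99 and 1.00, and ABCC1, the longest member, by -0.98. FTH1 was an exception, with a short transcript and a shift of -0.61. Spearman's rho of length and shift was -0.43 over the 31 members and -0.37 over 11204 genes, as a description, since all points share the same 6 libraries. Differences had the same sign in pairs 1 and 3 in 30 of the 31 members (96.8%, against 73.0% of all genes), and in 18 of those pair 2 had the other sign. The part of transcript length or RNA quality in the members' differences was not tested.

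**Figure D5:**
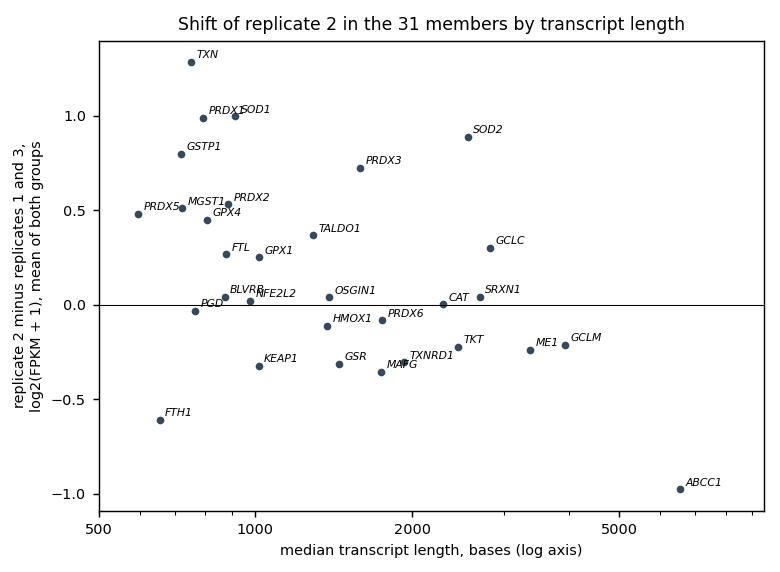
Shift of replicate 2 from replicates 1 and 3 on the log2(FPKM + 1) scale, averaged over BDE209 and DMSO (y axis), against median transcript length in bases on a log axis (x axis), 1 point per member. Short transcripts such as TXN, PRDX1 and SOD1 lie high and ABCC1, the longest, lies lowest, with FTH1 apart from the other short ones.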

How the data were processed

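RNA sequencing of 6 libraries was analysed, 3 of BDE209 and 3 of DMSO, grouped by sample title. Per the file headers, the deposited values are FPKM, given to 2 decimals with Ensembl gene identifiers. The submitters' processing notes list RSEM, Bowtie2 and Bowtie 0.12.2 as tools, with no roles, and mm8 and mm10 as builds, which are mouse builds although the identifiers are human; no human build is given in the sources used here, so only the RefSeq promoter windows carry coordinates (GRCh38.p14). The 40 rows of 20 repeated identifiers were left out, and 16535 of 16574 genes matched a symbol. SOD2 was named from GENCODE v29. Reads shared by near-identical or overlapping genes may have been split.

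Values were tested as log2(FPKM + 1) with limma 3.58.1 (R 4.3.3, trend and robust options) over genes at 1 FPKM or more in 3 or more libraries. The method was also run on simulated data with the spread of replicates 1 and 3 and no replicate 2 shift. That run therefore does not show how the fit of all 6 libraries performs with such a shift. Adjusted p-values are Benjamini-Hochberg over all genes tested, and differences are BDE209 minus DMSO, which the pseudocount of 1 shrinks for low genes. The fit held no block. Libraries were paired by replicate number, with correlations of 0.738 to 0.875 within a number. Replicates 1 and 3 also correlated across numbers (0.646 and 0.644), so these values do little to tell 1 from 3. The labels do not say what a number shares. The members, the lists and the contrast of replicate 2 were chosen with earlier results of these data known. So was the fit of replicates 1 and 3 alone. All members are named; values in every library are given for the regulators, the classical targets and members of one sign in all pairs with a difference of at least 0.15, and for others, chosen after their values were seen, where they show a pattern. Of the other pathway genes, NQO1, SLC7A11, SQSTM1 and BACH1 were named by choice, with others not reported here, and the 8 largest of one sign in all pairs were added; NFE2L1 and ABCC3 were named after their values were seen. Alternatives were a block, other pseudocounts, filters and scaling, limma without trend, and leaving out libraries. Absolute depth is unknown, so the counting precision of a value cannot be given. Python 3.11.15 and SciPy 1.17.1 were used for the rest.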

Additional observations from a re-analysis of the deposited data

How the results depend on the processing

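Over all 6 libraries, 0 members and 0 genes were called with the replicate block, a pseudocount of 0.1, no filter, a minimum FPKM of 5, median-ratio scaling (alone or with the replicate block) and limma without trend and robust options, so the block changed no call there. Without both replicate 2 libraries the counts were 4 members and 764 genes. Leaving out 1 library gave 0 members and 0 to 1 genes; the 1 gene, C1QTNF1, was called without BDE209 replicate 2. The members' median difference of 0.03 was 0.0019 with median-ratio scaling, with or without the replicate block, and -0.0199 to 0.0992 when 1 library was left out, so its sign rests on single libraries; the cause was not tested.

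Other settings for replicates 1 and 3 and for the replicate 2 contrast were chosen after seeing the data. In replicates 1 and 3, the replicate block called 17 members and 3146 genes, on 1 residual degree of freedom. Limma without trend and robust options called 2 members, FTH1 and SOD2, and so did each fit that left out 1 of the 4 libraries, with 250 to 435 genes; there the lone library is assumed to vary like the other group. Median-ratio scaling lost CAT. In the contrast, leaving out 1 library of replicates 1 or 3 gave 26 to 105 genes against 69, and SOD2 was called each time; replicate 2 cannot be left out of it. Leaving out 1 of the 6 libraries turned the sign of 7 to 11 members, the largest with differences of 0.16 (MGST1) and 0.13 (TXN), both called only in replicates 1 and 3 with the replicate block. FPKM without counts give no depth, which limits what can be said of MAFG, GCLC, GCLM and OSGIN1, the members with the lowest values.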
